A study of Mus musculus with 6 samples.

Results

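*Mbp*, *Mag*, *Mog*, *Mobp*, *Bcas1* and *Qk* are genes of myelin and of the oligodendrocytes that make it, and alternative isoforms are known for them in the brain. They were taken as a list of 6 genes by symbol, and every alternative event listed under these symbols was kept. There were 13 such events, in 5 of the 6 genes, among 13002 events in 7788 genes on the array. *Mag* and *Bcas1* each had 2 events, *Mbp*, *Mobp* and *Qk* each had 3, and *Mog* had none, so *Mog* was not analysed here.

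The data were whole brain RNA of 6 mice of a B6.CAST congenic line, 3 homozygous for the *Nxf1* B6 allele and 3 for the *Nxf1* CAST allele, in 3 same-sex littermate pairs. *Nxf1* encodes a nuclear export factor for mRNA, and the line carries the CAST/EiJ allele on a B6 background. Of the pairs, 2 were female, aged 46 and 23 days, and 1 was male, with the *Nxf1* B6 animal labelled as 22 days and the *Nxf1* CAST animal as 23 days old; no animal was labelled as treated. Each RNA was hybridized to 1 Affymetrix MJAY array, which carries separate probe sets for the exclusion path and the inclusion path of an alternative event. The *Nxf1* CAST animals also carry CAST sequence around *Nxf1* on chromosome 19, and this segment and the allele cannot be told apart. None of the 13 events lay on that chromosome.

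The deposited intensities were pooled over the arrays of a set A and a set B, with 1 value per set. No value per animal was used here, so no replicate check, error or test was computed for any event, and precision is further limited by having 6 arrays. Which genotype each set holds is not written in the table. Its header speaks of controls before experiments and lists A before B, so set B was likely the *Nxf1* CAST set, and all values are given by set for that reason. A log2 ratio above 0 means that the exclusion intensity, divided by the inclusion intensity, was higher in set B than in set A.

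Myelin is the layered membrane that oligodendrocytes wrap around axons, and in the mouse brain most of it is laid down in the first weeks after birth. Several of its proteins are made in more than 1 isoform, and the balance of isoforms is known to shift as oligodendrocytes mature. The RNA-binding protein encoded by *Qk* is a known regulator of splicing, stability and transport of myelin RNAs, *Mbp* and *Mag* among them, and mice with reduced *Qk* in oligodendrocytes form too little myelin.

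The exclusion to inclusion ratios of the myelin genes differed between the sets by amounts inside the middle 95% of all events. None of the 13 events had an absolute log2 ratio over 0.5, the size threshold of the study's methods (0 of 13), against 7.34% of the 12948 events on the array for which a ratio could be computed. With only 13 events, a count of 0 was near that share. Rounding alone allowed the *Bcas1* cassette exon, at 0.50, a value up to 0.52. Over 0.3 there were 3 of 13 events (23.1%), in *Bcas1* and *Mag*, against 26.0% of all events, also a share near the background. The median absolute log2 ratio was 0.12 for the 13 events and 0.18 for all events. The ratio was above 0 for 8 of the 13 events and below 0 for 5, and 2 of the former were below 0 once the median of all events was subtracted.

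**Figure D1:**
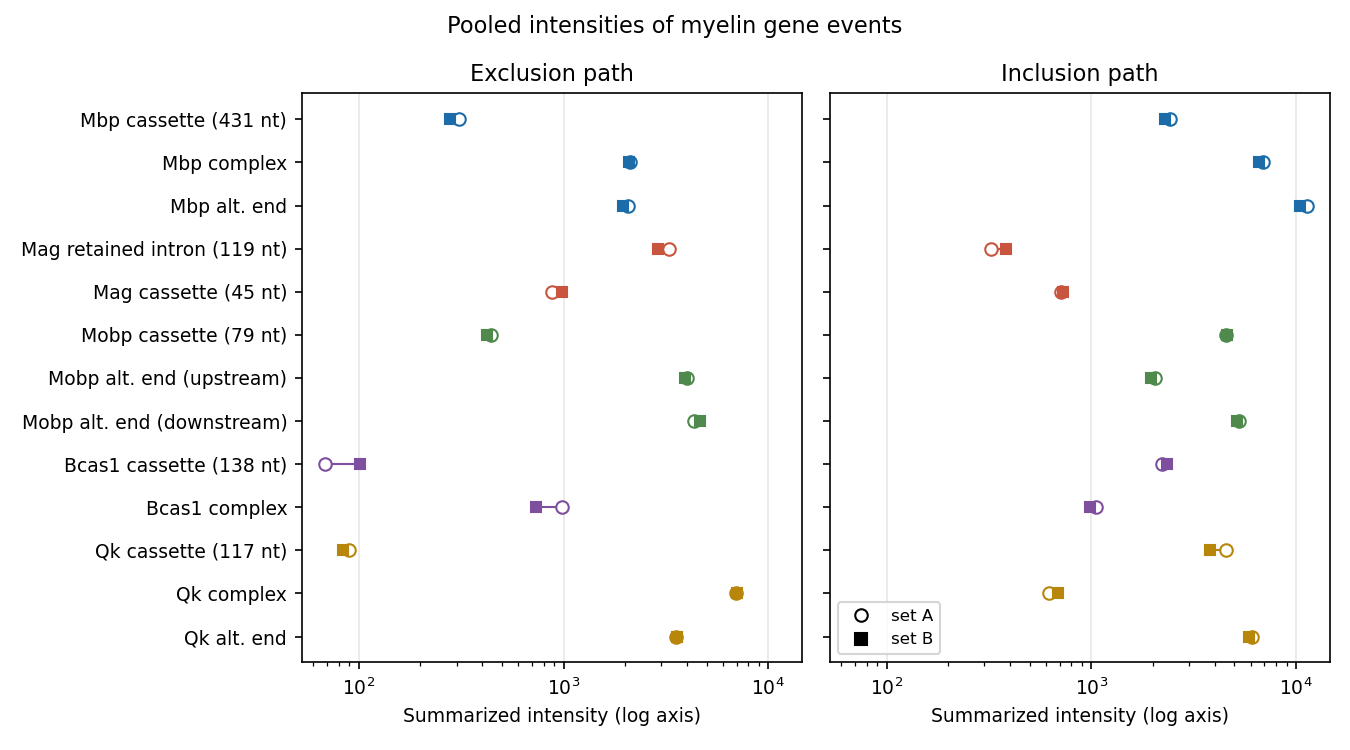
Pooled exclusion (left) and inclusion (right) intensities of the 13 events on a log axis, with open circles for set A and filled squares for set B. The symbols of most events overlap, and the widest gap is that of the *Bcas1* cassette exon, with exclusion intensities of 68 and 101.

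*Mbp* encodes myelin basic protein, which holds together the cytoplasmic faces of compact myelin, and longer transcripts that start upstream of the classic gene give the golli proteins. Its 3 events were a cassette exon, an alternative end and a complex event on the plus strand of chromosome 18. The cassette exon, of 431 nucleotides by its event name, lay between 82691529 and 82742216 in the positions of the table, in the upstream part of the region. Its exclusion path read 309 in set A against 279 in set B, and its inclusion path 2418 against 2297. Both paths were thus slightly lower in set B, and the log2 ratio was -0.07.

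The alternative end of *Mbp* lay between 82724142 and 82755029 and overlapped the cassette event. Its inclusion path read 11314 in set A against 10504 in set B, and its exclusion path 2065 against 1950, for a log2 ratio of 0.02. The complex event, between 82744579 and 82748348, had exclusion intensities of 2117 and 2092 and inclusion intensities of 6877 and 6606, for a log2 ratio of 0.04. These are small values, and 7.46% and 12.3% of all events on the array had a smaller absolute ratio.

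All 6 intensities of *Mbp* were lower in set B, by a log2 difference between -0.02 and -0.15, with a median of -0.08. Over all exclusion and inclusion intensities on the array, 49.8% were lower in set B and the median log2 difference was 0.00, with the middle 95% between -0.42 and 0.47. The *Mbp* differences were well inside that range. In whole brain RNA, fewer oligodendrocytes and less *Mbp* RNA per cell cannot be told apart. The alternative end overlaps both other events, so their intensities are not separate measurements of the gene's level.

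*Mobp* encodes a small basic protein of compact myelin whose isoforms differ toward the C-terminus. It had 3 events on the plus strand of chromosome 9. The cassette exon, of 79 nucleotides by its event name, lay between 120058915 and 120076918. Exclusion read 444 in set A against 422 in set B and inclusion 4560 against 4604, for a log2 ratio of -0.09. The paths differed by -4.95% and 0.965%, in opposite directions.

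The *Mobp* alternative ends adjoined each other at 120082493. The upstream one began at 120077128 and had exclusion intensities of 4011 and 3900 and inclusion intensities of 2040 and 1958, for a log2 ratio of 0.02, the smallest absolute ratio of the 13 events. The downstream one ran to 120090602, with exclusion intensities of 4320 and 4623 and inclusion intensities of 5283 and 5170, for a log2 ratio of 0.13. The table does not say which of the ends its exclusion path stands for. For *Mobp* as a whole, 4 of 6 intensities were lower in set B and 2 were higher.

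*Mag* encodes myelin-associated glycoprotein, an adhesion protein of the inner myelin membrane that faces the axon. Its long and short forms differ in the cytoplasmic tail through a short exon near the 3′ end that is skipped in the long form and included in the short form. The array held 1 cassette event of *Mag*, of 45 nucleotides by its event name, on the minus strand of chromosome 7 between 31684717 and 31685656. This was the more 3′ of the *Mag* events, but whether it is the exon of the long and short forms was not checked against an annotation of the same assembly. Its exclusion path read 873 in set A against 977 in set B, and its inclusion path 708 against 728. Both paths were higher in set B, exclusion by 11.9% and inclusion by 2.82%, and the log2 ratio was 0.12, with 36.1% of all events smaller in absolute size.

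The second *Mag* event was a retained intron of 119 nucleotides, between 31696788 and 31696909. Here the exclusion path, with the intron spliced out, read 3266 in set A against 2888 in set B, and the inclusion path, with the intron kept, 322 against 384. The paths differed in opposite directions, with log2 differences of -0.18 for the spliced form and 0.25 for the form with the intron. The log2 ratio of -0.43 was the second largest of the 13 events by size. Its rank by absolute value was 1488 among the 12948 events, and 84.5% of the 1065 retained introns on the array had a smaller absolute ratio. Exclusion over inclusion thus came to 10.1 for set A against 7.52 for set B.

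*Bcas1* encodes a protein of myelinating oligodendrocytes that marks cells early in the process. Its cassette exon, of 138 nucleotides by its event name, lay on the minus strand of chromosome 2 between 170204429 and 170212662. The exclusion path read 68 in set A against 101 in set B, and the inclusion path 2225 against 2341. The log2 ratio was 0.50 (1.41-fold), the largest of the 13 events, and its unrounded value lay just under the threshold. Since the intensities are whole numbers, rounding alone allowed values from 0.48 to 0.52. By absolute size it ranked 968 of all events. The difference came from the exclusion path, whose log2 difference was 0.57, against 0.07 for the inclusion path. With 50 added to each intensity the log2 ratio of this event was 0.28, since its exclusion intensities lay near the lowest value in the table, which was 43. It was then smaller in size than the ratios of the *Mag* intron (-0.40) and the complex event of *Bcas1* (-0.30), so its place as the largest depends on that setting.

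The complex event of *Bcas1* lay between 170174963 and 170204222, next to the cassette event on its 3′ side. The exclusion path read 984 in set A against 737 in set B, and the inclusion path 1050 against 983. Both were lower in set B, by -25.1% and -6.38%, and the log2 ratio was -0.32, so the events of this gene differed in sign. Here no intensity was close to the low end of the table, and 77.0% of all events had a smaller absolute ratio.

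*Qk* encodes RNA-binding proteins whose main forms share the RNA-binding part and differ in the C-terminal tail through alternative 3′ ends. Its 3 events lay on the minus strand of chromosome 17. The alternative end, the most 3′ of them, ran from 10401470 to 10406223. Its exclusion path read 3536 in set A against 3585 in set B, and its inclusion path 6069 against 5924. The log2 ratio was 0.05 (1.04-fold). Whether this event separates the forms with different tails was not checked against an annotation of the same assembly.

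The cassette exon of *Qk*, of 117 nucleotides by its event name, lay between 10431881 and 10475724. The exclusion path read 90 in set A against 84 in set B, near the low end of the table, and the inclusion path 4552 against 3821. The log2 ratio was 0.15, with 0.14 to 0.17 allowed by rounding, although the inclusion path differed by -0.25 on the log2 scale. The complex event spanned 10406223 to 10512705, with exclusion intensities of 6970 and 7047 and inclusion intensities of 624 and 689, for a log2 ratio of -0.13. Of the 6 *Qk* intensities, 3 were lower and 3 were higher in set B. The complex event spans the cassette event, so these intensities are not separate measurements of the gene's level.

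**Figure D2:**
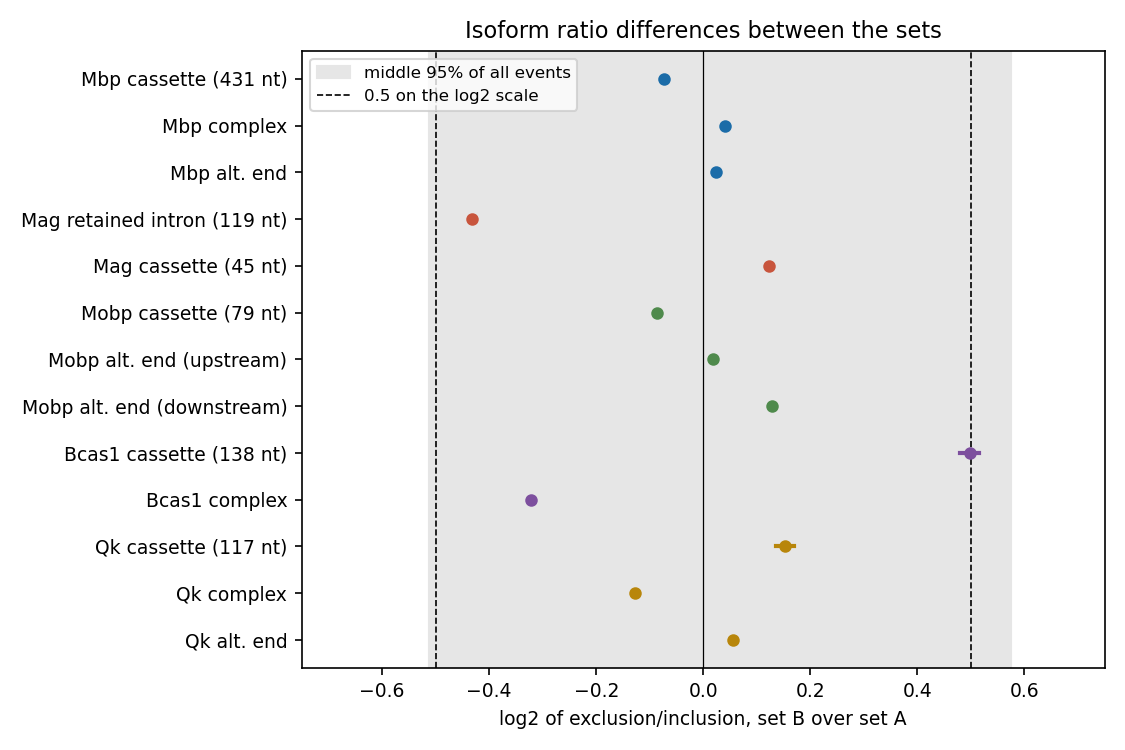
Log2 of the exclusion to inclusion ratio, set B over set A, for the 13 events, with bars for the range that rounding of the intensities allows, which is wider than the symbol only for 2 cassette exons. The shaded band holds the middle 95% of all events (-0.51 to 0.58), dashed lines mark 0.5 in either direction, and every point of the 13 lies inside the band.

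By event type, the 4 alternative ends had the smallest median absolute log2 ratio, 0.04, against 0.14 for the 2522 alternative ends on the array. All 4 ratios were above 0, but with the median of all events subtracted those of the *Mbp* end and the upstream *Mobp* end were below 0. The 5 cassette exons had a median of 0.12, against 0.19 for 3763 cassette exons, and the 3 complex events a median of 0.13, against 0.17 for 1253 complex events. The *Mag* intron, with an absolute ratio of 0.43, stood above the median of 0.22 for retained introns. The direction was the same for both paths in 9 of the 13 events (69.2%) and in 58.6% of the 12585 exclusion paths on the array.

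The size of a ratio also went with the intensity of the event's dimmest path. When all events were divided into 5 groups of about equal size by the lowest of their intensities, the median absolute log2 ratio was 0.22 in the dimmest group and 0.14 in the brightest, and 10.8% and 3.90% of these events were over 0.5. The brightest group held 9 of the 13 myelin events, with a median absolute ratio of 0.09. The dimmest group held 2, the cassette exons of *Bcas1* and *Qk*, and the next to brightest held 2, the cassette exon of *Mbp* and the retained intron of *Mag*. The part that intensity played in these ratios was not tested.

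**Figure D3:**
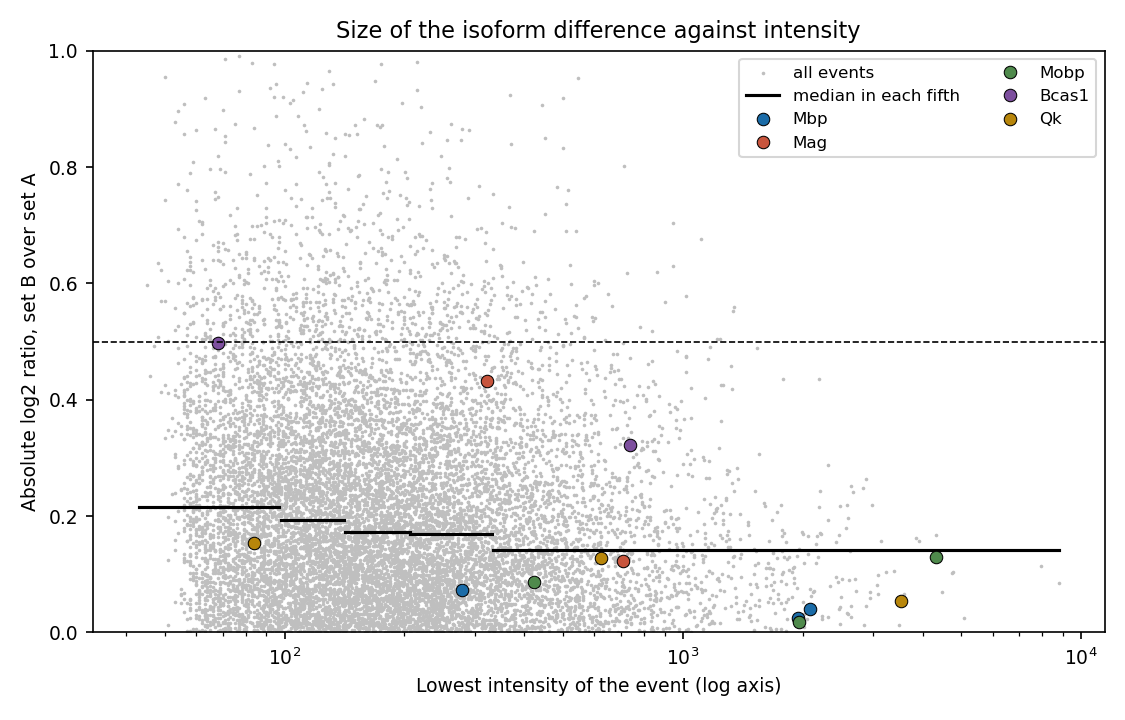
Absolute log2 ratio of each event against the lowest of its intensities on a log axis, with grey points for all 12948 events, black lines for the median in each of the 5 groups by intensity and coloured points for the myelin genes. Most coloured points lie at high intensity and below the median of their group, while *Bcas1* and *Mag* hold the 3 highest; 29 grey points above 1 are not drawn.

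Other genes of myelin and oligodendrocytes were looked at in the same way. A list of 62 symbols, older symbols included, found 25 genes with 51 events. The list was broad and took in genes also active in neurons, such as *Ank3*, *Nfasc* and *Cntn1*. In whole brain RNA its values are therefore not those of oligodendrocytes alone. Of these, 4 had an absolute log2 ratio over 0.5 (7.84%, against 7.34% of all events), and their median absolute ratio was 0.12. All 4 ratios were above 0. In *Bin1*, which encodes a membrane-shaping protein with brain isoforms, a complex event had a log2 ratio of 0.60 and a cassette exon had 0.52. For the complex event, exclusion read 293 in set A against 494 in set B and inclusion 621 against 691.

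*Pmp22*, which encodes a membrane protein of peripheral myelin, had a cassette exon with a log2 ratio of 0.54. Its exclusion path read 138 in set A against 193 in set B, and its inclusion path 2115 against 2041. *Prx*, which encodes periaxin of Schwann cells, had an alternative start with a log2 ratio of 0.51, with exclusion intensities of 207 and 353 and inclusion intensities of 375 and 448. Both genes are known mainly from peripheral nerve. The next largest was a cassette exon of *Qdpr*, which encodes an enzyme that regenerates tetrahydrobiopterin, at 0.48. With 50 added to each intensity, 1 of the 51 events had an absolute ratio over 0.5, against 3.18% of all events, and with the median of all events subtracted 2 did, against 7.14%.

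**Figure D4:**
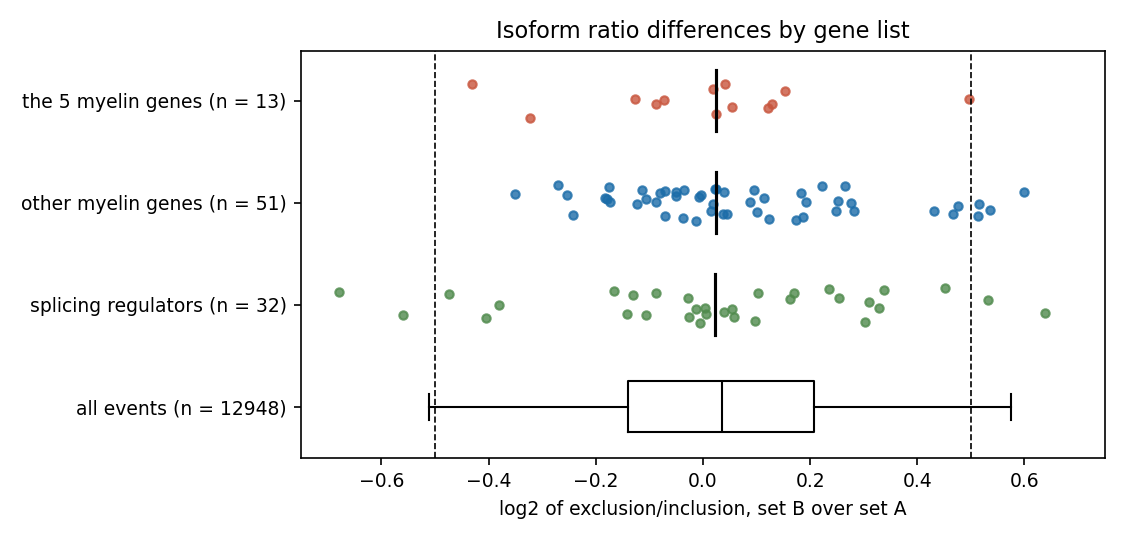
Log2 of the exclusion to inclusion ratio in set B over set A for events of the 5 myelin genes, of other myelin and oligodendrocyte genes and of other splicing regulators, each point an event and each bar a median; the box spans the quartiles of all events and its whiskers the middle 95%. Dashed lines mark 0.5 in either direction, which none of the 13 events passed and 4 of the 51 and 4 of the 32 events in the other lists did; the sign of complex events without an exclusion path is that of the path with the largest value.

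Markers of brain cell types on the array were compared between the sets to look at cell content. For oligodendrocytes and myelin, 5 of the 12 listed symbols had events (*Cnp*, *Mag*, *Mal*, *Mbp* and *Mobp*), with *Mbp* the brightest. Their intensities summed to 56188 for set A against 54663 for set B, a difference of -2.71%, and 3 of the 5 genes had a median log2 difference below 0. Most of that sum is *Mbp*, *Mobp* and *Mag* themselves, so it is no separate measure of oligodendrocyte content. The other markers differed in opposite directions, with *Cnp* at 2177 for set A against 2106 for set B and *Mal* at 3084 against 3175. For neurons the summed intensity differed by -3.99% over 3 genes, all 3 with a median log2 difference below 0, and for oligodendrocyte precursors by -2.46% over 2, with 1 below 0. For astrocytes the sum differed by 2.39% over 5 genes, but 4 of the 5 had a median log2 difference below 0 (-0.05 over the 5 genes), and *Slc1a3* alone summed to 11960 for set A against 13045 for set B. For microglia it differed by 1.25% over 2 genes, with 1 below 0, and for endothelium by -5.67% over 2, both below 0, and the immature neuron marker *Dcx*, the only listed gene of its kind found, read 1687 for set A against 1449 for set B (-14.1%). The lowest of all intensities was 43, so no listed marker with an event could read 0, and detection of the markers was not checked. The part of cell content in the ratios of the myelin genes was not tested.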

How the data were processed

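Brain RNA of 6 mice was hybridized to Affymetrix MJAY arrays. The authors deposited, for each path of an event, whole-number intensities of exclusion and inclusion probe sets, taken here to be on a linear scale, already pooled over the arrays of sets A and B. The submitters' processing notes name Affymetrix Power Tools. Normalization, background correction and genome build are not given in the sources used here. None of the 13 member events overlapped its gene in the RefSeq table of GRCm38, so positions are printed as in the authors' file and no annotation was added.

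The file's columns of separation scores and q-values are the authors' own comparisons and were not used. The path columns of the 12497 events with 1 exclusion and 1 inclusion path mirror each other, so each such event holds 4 intensities. The log2 ratio was computed over the whole table. For each event the path with the largest absolute value gave the size, and the exclusion path gave the sign. Numbers in event names were read as lengths; for 93.7% of retained introns the number was the span minus 2.

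All member events and, of each other list, the 5 events with the largest absolute ratio and those over 0.5 are named. Members and lists were chosen with earlier results of these data known. The computation was checked on simulated data. Python 3.11.15, numpy 2.4.6, pandas 2.3.3 and matplotlib 3.10.9 were used.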

Additional observations from a re-analysis of the deposited data

How the results depend on the processing

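No paired analysis was possible because the intensities used, those listed for the paired comparison included, are 1 pooled value per set, and the authors' own paired scores were not used. For the same reason no pair could be left out in turn. The intensities listed for the standard comparison were the same in all 26304 paths with both, and 12 of the 13 events had them. The count of myelin gene events over the threshold was 0 with 50 added to each intensity and with the median of all events subtracted. It was 3 with a threshold of 0.3. Keeping only intensities of at least 100 left 11 events and could not move the count from 0, since it only removes events. The mean over paths, the exclusion path alone and the standard comparison could not move it either. The paths of all 13 events mirror each other, and the intensities are the same. Nor could the 1.5-fold threshold, which is stricter. For the other myelin genes, 4 became 1 with 50 added, 2 with the median subtracted, 1 with the 1.5-fold threshold and 8 with 0.3. For the splicing regulators, 4 became 2 with 50 added, 2 with the 1.5-fold threshold, 12 with 0.3 and 3 of 28 with intensities of at least 100, which leaves out the *Hnrnpa2b1* cassette exon. The share of all events was 3.18% with 50 added, 7.14% with the median subtracted, 6.47% with intensities of at least 100, 3.78% with the 1.5-fold threshold and 26.0% with 0.3. Subtracting the median of all events turned the sign of the *Mbp* alternative end (-0.010) and of the upstream *Mobp* alternative end (-0.016), the only member ratios that changed sign under an alternative. With 50 added, 10 of the 13 member ratios moved by more than rounding allows, each keeping its sign. The cause was not tested, except that a lower threshold admits more events by construction. An added constant also makes the relative difference of each intensity smaller by construction, most of all for dim paths. With it the ratio of the *Bcas1* cassette exon fell from 0.50 to 0.28. That of the *Qk* cassette exon rose from 0.15 to 0.19. Both of its paths were lower in set B, and the constant made the difference of its dim exclusion path relatively smaller. Intensities near the lowest value in the table limit the ratios of the *Bcas1* and *Qk* cassette exons.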

Other observations

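Other splicing regulators and RNA-binding proteins of brain were set beside *Qk*. A list of 20 symbols, older symbols included, found 14 genes with 32 events, of which 4 (12.5%, against 7.34% of all events) had an absolute log2 ratio over 0.5, with 2 above and 2 below 0. With 50 added to each intensity 2 of the 32 passed, against 3.18% of all events, and with a 1.5-fold threshold 2 did, against 3.78%. The median absolute ratio was 0.16, against 0.18 for all events. An alternative start of *Mbnl1*, which encodes a muscleblind splicing regulator, had a log2 ratio of -0.68, with exclusion at 1471 in set A against 1215 in set B and inclusion at 152 against 201. A cassette exon of *Hnrnpa2b1*, whose protein binds the transport signal of *Mbp* RNA, had a log2 ratio of 0.64 with dim exclusion intensities of 69 and 94. An alternative 5′ splice site of *Nova2* had -0.56, an alternative end of *Ptbp2* had 0.53 and a cassette exon of *Mbnl2* had -0.47. The *Nova2* event had no intensity under 665, with exclusion intensities of 1139 and 1044 and inclusion intensities of 665 and 899. Without an added constant, the largest absolute ratio of *Qk*, 0.15, was slightly smaller than the list's median. With 50 added to each intensity this *Qk* ratio was 0.19, and the list's median was not computed for that setting.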
